A study of Homo sapiens with 24 samples.

Results

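The sites described here are regions of S100A8-Flag or S100A9-Flag association whose summit lay at a divergent promoter, where the transcription start sites (TSSs) of 2 protein-coding genes on opposite strands faced away from each other within 1 kb. They numbered 1221 of 30322 sites in all, and 1221 of the 9434 sites that lay at a promoter of a protein-coding gene. The sites were chosen on the measured peaks of the same 11 libraries that are described below. For this, peaks on the autosomes and chromosome X with q ≤ 1e-07 were joined within each condition, retained when at least 2 replicates had a peak, and joined again over the 4 conditions. A site was kept when the summit of its best peak was from 1500 bp before to 250 bp after a TSS with a facing partner. The number of libraries that called a site is therefore a description of the sites and was not tested. Some tested comparisons set these sites against the other promoter-proximal sites, which the same peak criteria had chosen, or counted peaks at every annotated gene. Others, on summit position and on motifs, were made within these sites alone. Apart from the counts over all genes, the tests thus use peaks or calls that also chose the sites.

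The cells were MCF-10A–ER-Src, a line derived from nontransformed human breast epithelial cells that carries a fusion of v-Src to the estrogen receptor ligand-binding domain, and that stably expressed S100A8-Flag or S100A9-Flag. They received 1 μM 4-hydroxytamoxifen (TAM) for 24 hours, which activates the fusion and transforms the cells, or with ethanol (EtOH), and chromatin cross-linked between proteins and then with formaldehyde was precipitated with a Flag antibody. Each protein and treatment had 3 libraries, except for S100A8-Flag in EtOH with 2, all labeled as biological replicates and 11 in total. ER-Src was present in every library, and the introduced Flag proteins were made whether or not the cells were treated. An EtOH library had between 1853 and 4609 peaks with q ≤ 1e-07, and a TAM library had between 21518 and 40735. The lists hold no read numbers, so that fewer peaks from lower depth and fewer peaks from weaker association cannot be told apart.

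Divergent, or bidirectional, promoters are head-to-head gene pairs that share one stretch of DNA from which transcription leaves in both directions. They usually lie in CpG islands, rarely have a TATA box, and are known to be frequent among housekeeping genes, such as those for DNA repair, histones, chaperones, and mitochondrial proteins. S100A8 and S100A9 are calcium-binding cytokines with no known DNA binding domain, so that a ChIP peak marks association with chromatin and not a recognized sequence.

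The DNA between the gene pairs of 8 of these sites is shown to illustrate what such an interval contains. The sequences are the GRCh37 (hg19) plus strand between the annotated ends of both genes, with no exon of a protein-coding gene, and capitals mark matches to the motifs searched on either strand. The first 3 pairs had a site called in all 11 libraries, and the other pairs are textbook divergent pairs. They were picked after the values were seen. DDX51/NOC4L is at chr12:132628865-132629001, with a CREB motif in capitals. ENSG00000285253/TCF12 is at chr15:57210770-57210820 and holds none of the motifs. STX8/CFAP52 is at chr17:9479909-9479943, with an NRF1 motif. PPAT/PAICS is at chr4:57301782-57301906, with a KLF/SP1 motif. NTHL1/TSC2 is at chr16:2097868-2097967 and TMEM258/FEN1 at chr11:61560275-61560382, each with an E-box. SARS2/MRPS12 is at chr19:39421404-39421583, with 4 NFY motifs, and TK1/AFMID is at chr17:76183315-76183438, with a TATA box.
DDX51/NOC4L: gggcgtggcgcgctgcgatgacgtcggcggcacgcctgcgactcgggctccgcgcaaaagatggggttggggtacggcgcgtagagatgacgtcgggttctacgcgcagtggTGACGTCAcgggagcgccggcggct
ENSG00000285253/TCF12: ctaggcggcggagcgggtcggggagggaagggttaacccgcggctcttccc
STX8/CFAP52: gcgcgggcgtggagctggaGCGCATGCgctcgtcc
PPAT/PAICS: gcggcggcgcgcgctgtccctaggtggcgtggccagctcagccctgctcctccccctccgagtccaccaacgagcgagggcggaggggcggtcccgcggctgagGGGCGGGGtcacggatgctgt
NTHL1/TSC2: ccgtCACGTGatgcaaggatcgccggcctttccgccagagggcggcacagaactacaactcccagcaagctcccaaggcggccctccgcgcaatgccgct
TMEM258/FEN1: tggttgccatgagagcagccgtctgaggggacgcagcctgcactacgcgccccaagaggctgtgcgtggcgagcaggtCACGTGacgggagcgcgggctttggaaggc
SARS2/MRPS12: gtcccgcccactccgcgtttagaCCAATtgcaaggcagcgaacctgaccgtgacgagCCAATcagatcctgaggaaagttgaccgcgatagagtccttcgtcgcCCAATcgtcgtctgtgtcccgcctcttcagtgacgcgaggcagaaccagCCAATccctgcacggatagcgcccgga
TK1/AFMID: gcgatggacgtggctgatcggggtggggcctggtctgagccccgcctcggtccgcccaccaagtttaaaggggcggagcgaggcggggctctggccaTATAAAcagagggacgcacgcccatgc
The GC content of these intervals ran from 60% in SARS2/MRPS12 to 77.1% in STX8/CFAP52. The site's summit fell inside the printed interval in DDX51/NOC4L at base 70, in ENSG00000285253/TCF12 at base 43, and in NTHL1/TSC2 at base 75. In the other pairs it lay outside the interval.

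Genes with a divergent partner carried S100A8/S100A9 peaks more often than other genes, in every library. Of 19756 annotated protein-coding genes, 2825 had a protein-coding partner that faced away from them within 1 kb. A union site lay in the promoter window of 2185 of these (77.3%), against 7008 of the 16931 genes without such a partner (41.4%), and over all protein-coding genes the share was 46.5%. In EtOH, 18.1% ± 4.68 (SD, n = 5) of the genes with a partner and 8.85% ± 2.14 of the other genes had a peak of the library. In TAM, these shares were 64.8% ± 7.73 (SD, n = 6) and 34.9% ± 5.07. The log2 odds ratio of a peak was above 0 in 11 of 11 libraries and ranged from 1.09 in S100A9-Flag EtOH replicate 2 to 2.16 in S100A9-Flag TAM replicate 3. Its mean was 1.53 (exact sign-flip permutation test over libraries, two-sided, p = 0.000977, the smallest that 11 libraries can give; 0.00586 after Benjamini-Hochberg adjustment over 6 tests).

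The promoter window of a gene with a partner reaches over the partner's start, so that it can hold 2 promoters where the window of another gene holds 1. With summits counted only within 100 bp of a TSS of the gene, the mean log2 odds ratio was 1.26, and within 250 bp it was 1.34. Among genes whose canonical TSS was CpG-rich (at least 50% GC and an observed-to-expected CpG ratio of at least 0.6), it was 0.96. In these 3 alternatives the exact permutation p was 0.000977. Expression of the genes was not analyzed here.

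The odds ratio was larger in TAM than in EtOH at q ≤ 1e-07, but not with the same number of peaks in each library. The mean log2 odds ratio was 1.18 ± 0.09 (SD, n = 5) in EtOH and 1.82 ± 0.21 (n = 6) in TAM, and the groups did not overlap. The difference within proteins was 0.62 (exact permutation test of treatments within each protein, two-sided, p = 0.01, the smallest that 200 arrangements can give, adjusted 0.03). When each list was limited to its 1853 peaks with the lowest q values, the number in the smallest list, the log2 odds ratio was 1.10 ± 0.10 in EtOH and 1.13 ± 0.11 in TAM. The difference was then 0.02 (exact permutation test, p = 0.71). With summits counted only within 100 bp of a TSS it was 0.27, and with every peak as deposited 0.98 (exact permutation p = 0.01 for each). With these equal lists, 9.89% ± 0.73 of genes with a partner and 4.87% ± 0.21 of the other genes had a peak in EtOH, and 8.36% ± 1.02 and 3.99% ± 0.30 did in TAM.

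**Figure D1:**
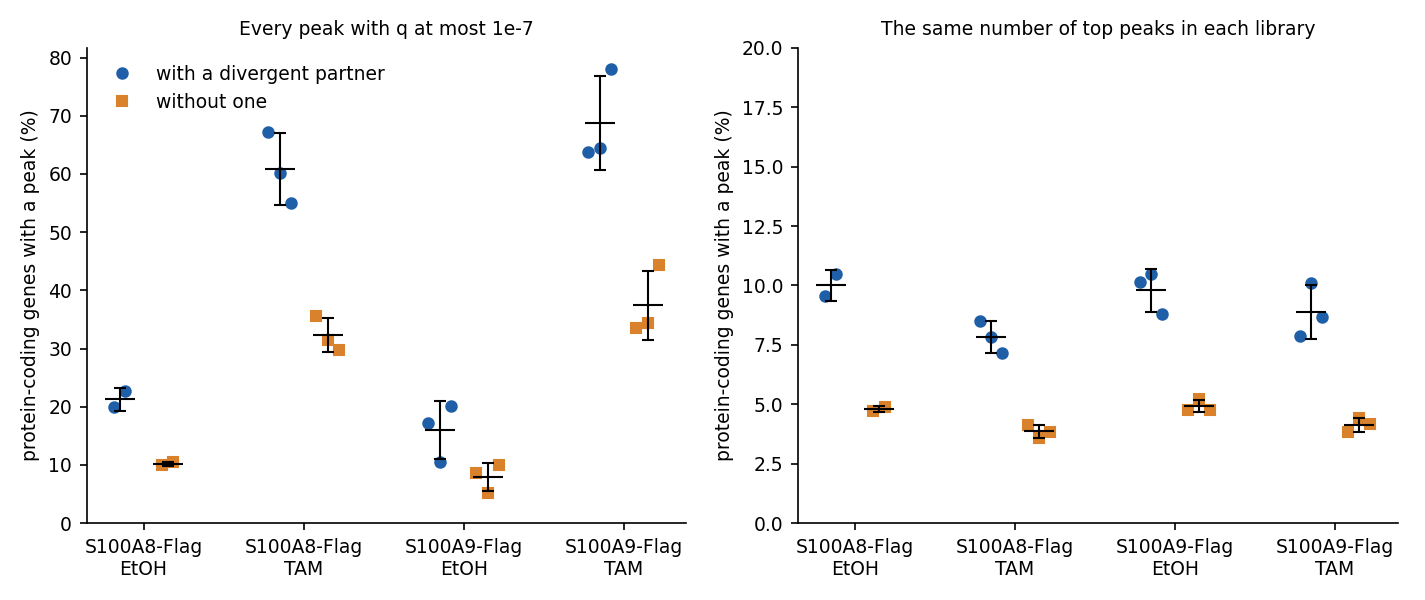
Share of protein-coding genes (%, y axis) with a peak summit in the promoter window, for genes with a divergent partner (circles) and without one (squares), in each library of the 4 groups, with the mean ± SD over replicates as bars. On the left, with every peak at q ≤ 1e-07, the circles lie between 10.5 and 78.1% and the squares between 5.23 and 44.3%. On the right, with 1853 peaks per library, the circles lie between 7.15 and 10.5% and the squares between 3.59 and 5.23%.

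Among promoters with a site, those with a divergent partner were called at nearly the same rate as the others. In S100A8-Flag EtOH, the 2 libraries had a peak at 20.3 and 23.6% of the 1221 sites. In S100A9-Flag EtOH, the 3 libraries had one at 18.3, 10.8, and 19.8%. In S100A8-Flag TAM, the shares were 71.7, 65.8, and 61.3%, and in S100A9-Flag TAM they were 70.5, 74.9, and 87.6%. Every TAM library thus called at least 61.3% of the sites and no EtOH library more than 23.6%. The same calls chose the sites, and the TAM lists were longer, so that nothing is read from this difference between the treatments. The other 8213 promoter-proximal sites had nearly the same shares, at 17.1% ± 4.14 (SD, n = 5) in EtOH and 70.3% ± 9.96 (n = 6) in TAM, beside 18.6% ± 4.74 and 72.0% ± 8.997 at the divergent promoters. The distal sites were called less often, by 6.62% ± 2.36 in EtOH and 59.8% ± 12.01 in TAM, and this held in each of the 11 libraries.

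The log2 odds ratio of a call at divergent against other promoter-proximal sites was above 0 in 10 of 11 libraries. It was 0.14 ± 0.09 in EtOH (n = 5) and 0.10 ± 0.11 in TAM (n = 6), and the library with a negative value was S100A9-Flag TAM replicate 3, at −0.08. The difference between the treatments within proteins was −0.05 (exact permutation test, p = 0.45, adjusted 0.54), smaller than the spread between replicates. In TAM, the ratio of S100A9-Flag minus that of S100A8-Flag was −0.14 (exact permutation test of 3 against 3 libraries, p = 0.3, adjusted 0.45, where the smallest possible is 0.1).

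**Figure D2:**
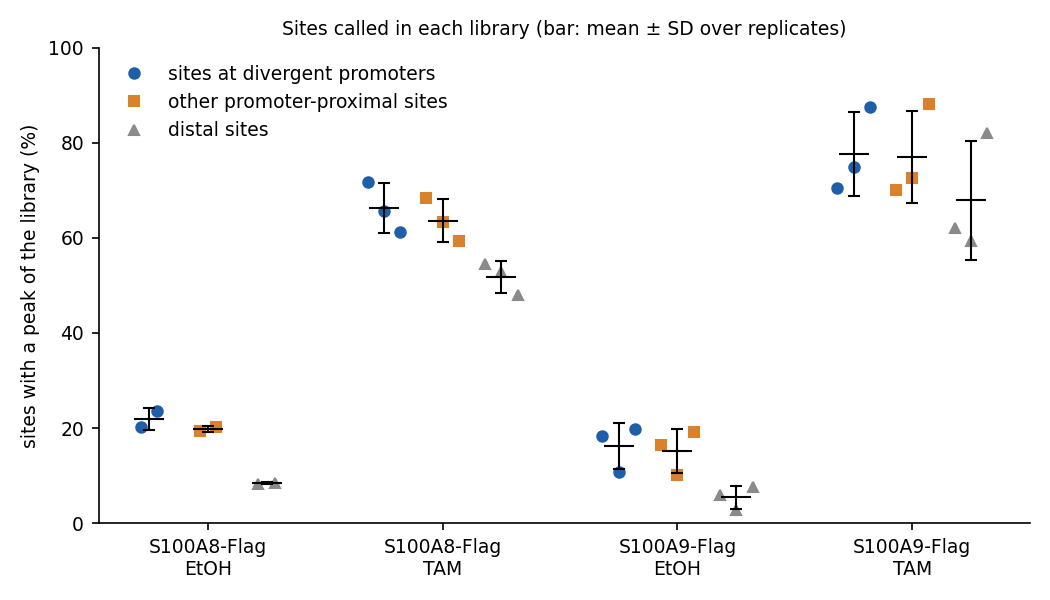
Share of sites (%, y axis) that had a peak with q ≤ 1e-07 in each library, for sites at divergent promoters (circles), other promoter-proximal sites (squares), and distal sites (triangles), with the mean ± SD over replicates as bars. Circles and squares lie side by side in each group, and the lowest TAM circle, at 61.3%, lies above the highest EtOH circle, at 23.6%. The sites were chosen by these same calls, and the TAM lists were longer.

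A site at a divergent promoter was called in a median of 5 libraries, and the range was 2 to 11. Of the 1221 sites, 645 (52.8%) were called in at least 1 EtOH library, where 31.1% of all union sites were. All 6 TAM libraries called 292 (23.9%), against 14.3% of all union sites. A larger share of TAM than of EtOH libraries called 1182 (96.8%, all union sites 98.2%), and a larger share of EtOH libraries called 15 (1.23%, all union sites 0.828%). All 6 TAM and no EtOH library called 61 (5.00%), near the 4.69% of all union sites. The other promoter-proximal sites were close to the divergent ones in each count, with 49.1% called in at least 1 EtOH library and 22.5% in all 6 TAM libraries. These counts use the calls that chose the sites, so that nothing is read from their differences.

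Peaks at divergent promoters were of middling strength within their libraries. Their median fold enrichment over input was between 7.77 and 8.53 in the EtOH libraries and between 8.00 and 9.09 in the TAM libraries. Ranked by fold enrichment among all peaks with q ≤ 1e-07 of the library, they had a median percentile of 52.0 ± 4.79 (SD, n = 5) in EtOH and 58.4 ± 2.48 (n = 6) in TAM. The peaks at other promoters stood at 55.5 ± 0.62 and 61.2 ± 2.48. The difference in percentile between both kinds of promoter was −3.49 ± 4.80 points in EtOH and −2.87 ± 0.96 in TAM, and the treatments differed by 0.04 points (exact permutation test, p = 1). That value averages −2.74 points for S100A8-Flag (exact permutation p = 0.2) and 2.82 points for S100A9-Flag (exact permutation p = 0.4). With q ≤ 1e-10 the treatments differed by −10.6 points (exact permutation p = 0.01), so that the result depends on the threshold. The merged sites had a median width of 604 bp at divergent promoters and 534 bp at other promoters.

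The 9 sites called in all 11 libraries (0.737% of the sites, other promoter-proximal sites 0.816%, all union sites 0.346%) stood at pairs of varied function. The site with the highest mean percentile lay at chr12:132628768-132629205 between DDX51, an RNA helicase, and NOC4L, a nucleolar protein, both of which act in ribosome assembly. Its fold enrichment was 13.2 and 9.48 in S100A8-Flag EtOH and 13.5, 7.98, and 7.66 in S100A9-Flag EtOH. It was 12.3, 13.5, and 17.3 in S100A8-Flag TAM and 9.05, 20.8, and 19.1 in S100A9-Flag TAM. The EtOH and TAM values overlapped. Its summit lay 70 bp from the start of DDX51 and 68 bp from that of NOC4L, near the middle of the interval printed above.

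The site at UCHL5, a deubiquitinase of the proteasome, and RO60, an RNA-binding protein, had fold enrichments from 6.12 to 15.3 in EtOH and from 5.91 to 20.8 in TAM. Both NSL1/TATDN3 and RGS5/NUF2 include a kinetochore gene, NSL1 and NUF2. The site at NSL1/TATDN3 ran from 7.44 to 15.5 in EtOH and from 9.93 to 26.0 in TAM, and that at RGS5/NUF2 from 7.19 to 16.5 and from 7.20 to 25.1. At TCF12, a basic helix-loop-helix transcription factor, EtOH libraries had 6.32 to 15.3 and TAM libraries 4.47 to 20.3. In each of these sites the ranges of the treatments overlapped. STX8/CFAP52 (a vesicle fusion protein and a protein of cilia) and PIGBOS1/PIGB (PIGB makes the glycosylphosphatidylinositol anchor) had sites at 6.01 to 13.9 and 6.10 to 16.5 in EtOH. In TAM, they stood at 7.14 to 14.5 and 6.75 to 15.2. At KLLN/ENSG00000289051 the summit lay 1064 bp inside KLLN, which encodes a nuclear protein, and the values ran from 7.05 to 10.7 in EtOH and from 6.53 to 15.9 in TAM. INTS7/DTL, a subunit of the Integrator complex and an adaptor of a ubiquitin ligase, had the lowest mean percentile, 47.1, with values from 6.93 to 7.79 in EtOH and from 5.02 to 12.7 in TAM. Its mean percentile was 17.3 over the EtOH and 71.9 over the TAM libraries. The ranges overlapped only through S100A8-Flag TAM replicate 3, at 5.02, and the other TAM values were 8.97 or higher. This difference was not tested.

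**Figure D3:**
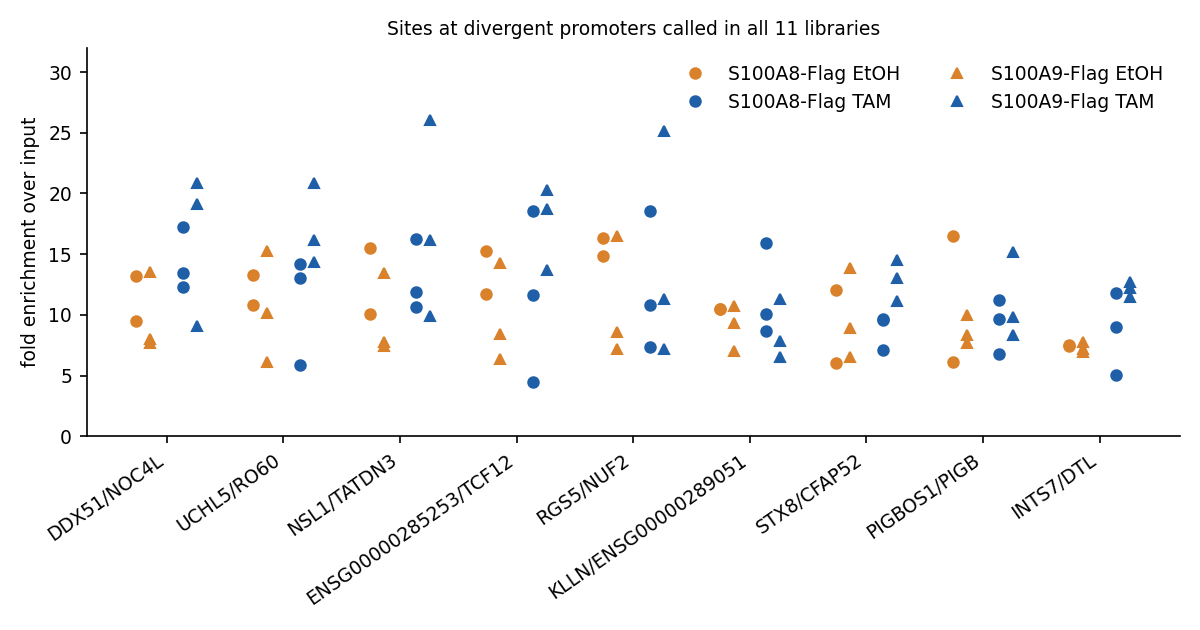
Fold enrichment over input (y axis) in each of the 11 libraries at the 9 sites called in all of them, 1 site per gene pair, with S100A8-Flag as circles, S100A9-Flag as triangles, EtOH in orange, and TAM in blue. The values of both treatments overlap at every site, at INTS7/DTL only through S100A8-Flag TAM replicate 3. The highest value is 26.0 at NSL1/TATDN3 in S100A9-Flag TAM.

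No TAM library called 2 of the sites (0.164%, all union sites 0.0923%), and both rest on the same pair of libraries. The site at BRF1, a subunit of RNA polymerase III initiation factor TFIIIB, and PACS2, a sorting protein, lay at chr14:105766619-105766889. Its fold enrichment was 8.78 in S100A9-Flag EtOH replicate 1 and 8.54 in replicate 3. The site at MRE11, the nuclease of the MRN complex for DNA break repair, and ANKRD49 lay at chr11:94226531-94226695, with 8.76 and 7.03 in these libraries. No other library had a peak with q ≤ 1e-07 at either site.

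Most summits lay close to a start, on either side of it. For each site the facing pair was that of the canonical transcripts where these met the criteria (831 sites) and otherwise the innermost pair, and the sites fell on 1050 pairs of genes. The facing starts were a median of 226 bp apart (quartiles 111 and 412 bp). The summit lay between them in 670 sites (54.9%), in 68.1% it lay within 100 bp of the nearer start, and in 48.2% within 50 bp. With starts this close, a summit between them is near a start wherever it falls. The summit was nearer the start of the minus-strand gene in 628 sites and that of the plus-strand gene in 591, with 2 at the same distance. In 1014 sites (83.0%) the summit was in the promoter window of both genes. The nearest TSS of any protein-coding transcript was a median of 36 bp away and 80 bp away at the other promoter-proximal sites. The criteria require starts of 2 genes at a divergent promoter, so that these medians are not a like comparison.

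Most pairs had a site whatever the distance between their starts. Of 974 pairs of canonical starts within 1 kb, 786 (80.7%) had a site. The share was 74.7% for pairs up to 100 bp apart, 77.5% up to 200 bp, 83.4% up to 400 bp, and 84.8% up to 1000 bp, each without the nearer pairs. In TAM libraries, 63.4% ± 10.1, 65.4% ± 7.75, 68.9% ± 9.66, and 69.5% ± 7.71 (SD, n = 6) of the pairs in these classes had a peak, and in EtOH libraries 20.1% ± 5.52, 19.2% ± 6.20, 17.0% ± 4.81, and 18.6% ± 3.91 (n = 5). At least 2 sites stood at 100 of the 786 pairs (12.7%), and at 38 (18.4%) of those more than 400 bp apart. The median distance from the summit to the nearer facing start was 24, 45.5, 61, and 95 bp in the 4 classes. As a fraction of the gap, summits between the starts lay at a median of 0.28, 0.29, 0.19, and 0.14 from the nearer start in these classes, so that only in the wider classes did they lie well to one side.

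**Figure D4:**
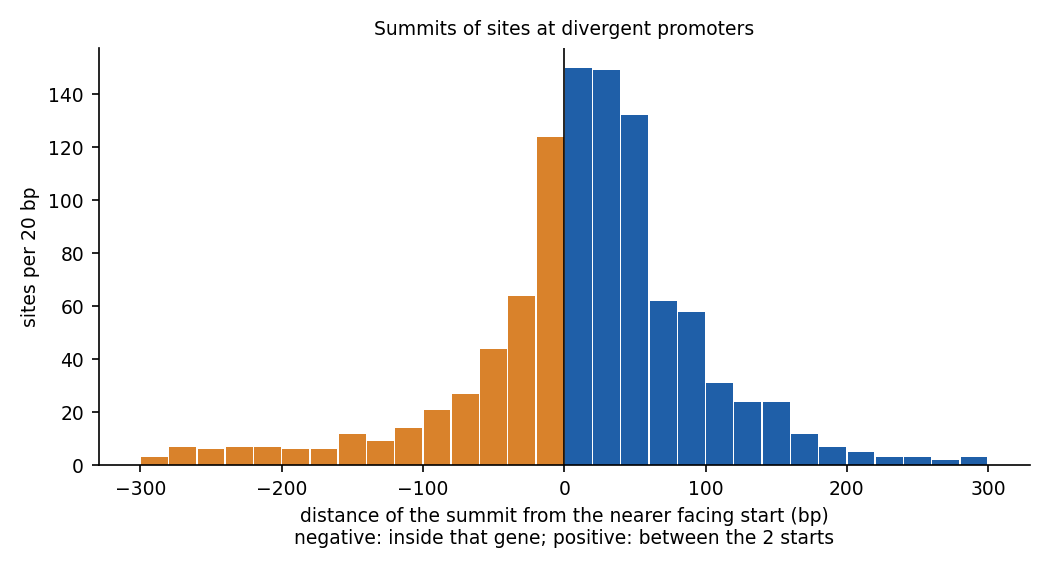
Number of sites (y axis) by the distance in bp of the summit from the nearer of the facing starts (x axis, bins of 20 bp), positive between the starts (blue) and negative inside the nearer gene (orange), for the 1022 of 1221 sites within 300 bp. The counts peak just upstream of a start, with 150 sites in the first 20 bp, and fall on both sides.

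The share of summits between the starts did not pass the test between treatments at q ≤ 1e-07, and the proteins moved in opposite directions. The share of a library's peaks at these sites with a summit between the facing starts was 48.7% ± 6.15 (SD, n = 5) in EtOH and 53.5% ± 3.41 (n = 6) in TAM. The difference within proteins was 3.84 percentage points (exact permutation test, p = 0.24, adjusted 0.45). For S100A8-Flag, the mean was 54.6% in EtOH and 52.4% in TAM (exact permutation p = 0.8), and for S100A9-Flag it was 44.8 and 54.7% (exact permutation p = 0.1, the smallest that 3 against 3 libraries can give). The S100A9-Flag libraries did not overlap, and the difference between the proteins in this effect was 12.1 points (exact permutation p = 0.08). This value, too, moved with the peaks used, and with q ≤ 1e-10 it was −1.57 points (p = 0.66 in the same permutation test). With the 1853 peaks of lowest q value in each library, which left between 47 and 74 such peaks per library, the shares were 58.7% ± 6.39 in EtOH and 73.7% ± 3.79 in TAM, and no TAM library was below 70.3% or EtOH library above 68.9%. The difference was then 14.3 points (exact permutation test, p = 0.01). With every peak as deposited it was 8.37 points (p = 0.03 in the same permutation test). Each site and its facing pair were chosen by the summit of the best peak of any library. The library that gave this peak thus set the site and pair for the others, and how this affects the shares was not tested. No difference between the treatments is therefore concluded from these p values. The summits of both proteins lay close together, a median of 46 bp apart in TAM over 1071 sites and 56.5 bp in EtOH over 250 sites.

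The sequence around the summits was that of CpG-island promoters, with the ETS motif at 36.8% of the sites. Windows of 100 bp on either side of the summit had a median GC content of 66.7% at divergent promoters, 67.2% at other promoters, and 52.7% at distal sites. CpG-rich windows made up 91.2%, 81.6%, and 13.8%. The motifs are consensus sequences searched on both strands without mismatches, and their shares have no replicates and were not tested. They differ in length, so that a motif is compared between kinds of site and not with other motifs. The letters CGGAAG, the core that factors of the ETS family bind, occurred in 449 of the 1221 windows (36.8%), in 26.0% at other promoters, and in 7.05% at distal sites. At all divergent canonical starts, with or without a site, the share was 37.2%, and at all canonical starts 20.03%. The ETS share at the sites was thus close to that at divergent promoters in general.

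For the other motifs, each share at divergent promoters is given first and that at other promoters second. The KLF/SP1 letters CCCCGCCC occurred in 22.4 and 25.5% of windows. The NFY letters CCAAT were found in 20.5 and 19.9%, and the E-box CACGTG in 8.19 and 7.68%. The YY1 letters AAGATGGC occurred in 5.65 and 3.77%, and the NRF1 letters GCGCATGC in 4.59 and 3.28%. The AP-1 letters TGAGTCA, the site of Fos and Jun dimers, which read TGACTCA on the opposite strand, were in 3.36% of the windows, in 7.12% at other promoters, and in 34.8% at distal sites. At all divergent starts the AP-1 share was 1.23%. CREB (TGACGTCA) stood at 2.78 and 2.87%, ZBTB33 (CTCGCGAG) at 1.72 and 1.13%, THAP11 (ACTACAATT) at 0.819 and 0.365%, and the TATA box (TATAAA) at 1.97 and 2.29%. The shares at all divergent starts were 24.9% for KLF/SP1, 28.4% for NFY, 8.15% for the E-box, 6.61% for YY1, 4.58% for NRF1, 3.09% for CREB, 2.29% for ZBTB33, 0.426% for THAP11, and 2.45% for TATA.

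**Figure D5:**
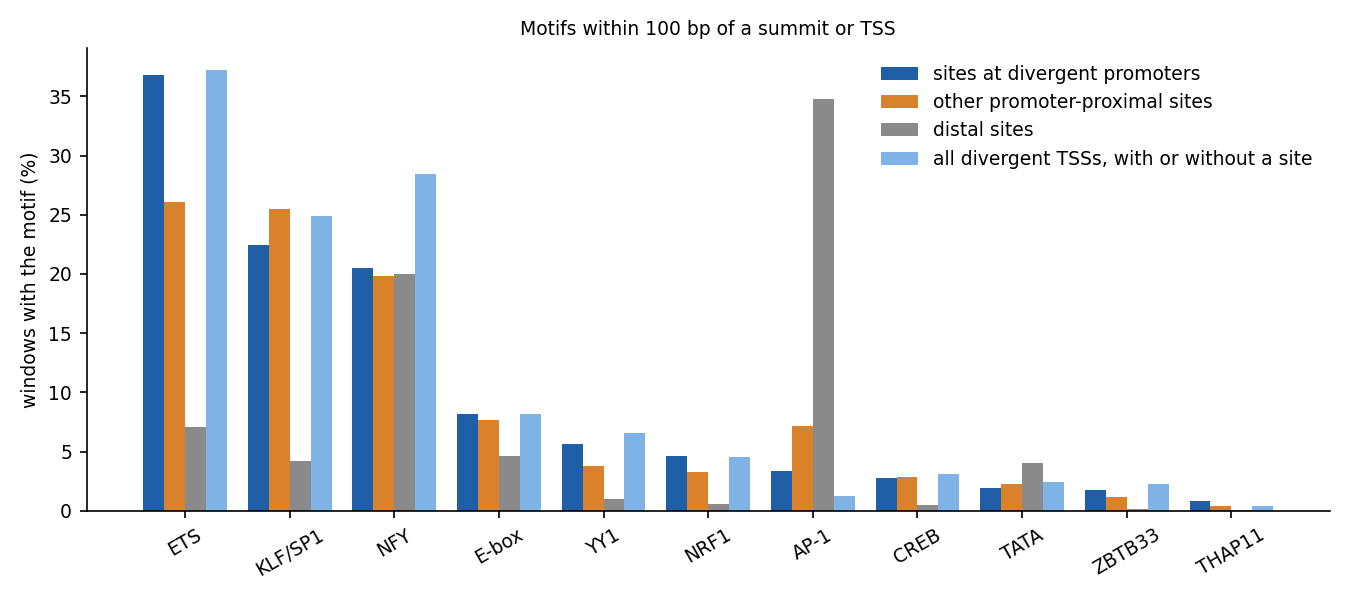
Share of windows (%, y axis) that hold each motif within 100 bp of the summit, for sites at divergent promoters, other promoter-proximal sites, and distal sites, and within 100 bp of all divergent canonical TSSs. ETS stands at 36.8% at divergent promoters and AP-1 at 34.8% at distal sites. The motifs differ in length, so that their shares do not rank them.

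Whether a motif within 50 bp of the summit went with a difference in calls between the treatments was tested for each of the 11 motifs. These calls also chose the sites, of which 576 had no EtOH call and 2 had no TAM call. How this affects the p values was not tested, and no conclusion is drawn from them. The KLF/SP1 motif, at 155 of the 1221 sites, had the smallest p. In EtOH, 14.2% ± 5.06 (SD, n = 5) of the sites with it and 19.2% ± 4.83 of those without it were called, and in TAM 73.4% ± 8.63 (n = 6) and 71.7% ± 9.16. The log2 odds ratio was −0.52 ± 0.32 in EtOH and 0.11 ± 0.27 in TAM, a difference of 0.60 within proteins (exact permutation test, p = 0.01, the smallest it can give). After Benjamini-Hochberg adjustment over the 11 motifs its p was 0.11, so that it did not pass, and none of the 11 motifs did. For the ETS motif, at 298 sites, the difference was 0.09 (exact permutation test, p = 0.22, adjusted 0.605).

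Most genes with a divergent partner in the functional groups known for such promoters had a site, as did most divergent genes at large. Of all genes with a divergent partner, 2077 (73.5%) had at least 1 site that met the criteria. Of these, 57.7% were called in an EtOH library, and the median gene was called in 1 EtOH and 5 TAM libraries. DNA repair genes and the transformation network were listed by name, and the other groups were taken by the start of the gene symbol. The latter thus count read-through genes, such as HSPE1-MOB4, and can hold genes that only share the symbol. Of 77 DNA repair genes, 35 had a partner and 28 of these a site. LIG4, the ligase of nonhomologous end joining, had its site with ABHD13 called in 3 EtOH and 6 TAM libraries. DDB1, a subunit of a complex that recognizes ultraviolet damage, and RAD50, of the MRN complex, had theirs called in 2 EtOH and 6 TAM libraries. BRCA2 had its site with ZAR1L called in 1 EtOH and 5 TAM libraries.

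Of 78 mitochondrial ribosome genes, 29 had a partner and 25 of these a site. MRPL40, which faces the histone chaperone gene HIRA, and MRPL9 were called in 4 EtOH and 6 TAM libraries. MRPL46 and MRPS11, which face each other 320 bp apart, shared a site called in 3 EtOH and 6 TAM libraries. Of 99 cytosolic ribosome genes, 23 had a partner and 18 a site, among them RPS16 with SUPT5H (2 EtOH and 6 TAM libraries) and RPS29 with LRR1 (1 and 6). Of 99 respiratory chain genes, 34 had a partner and 27 a site. COX4I1 of cytochrome oxidase (4 EtOH and 6 TAM libraries) and NDUFS1 of complex I (3 and 6 over its 2 sites together) led them.

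The 12 aminoacyl-tRNA synthetase genes with a partner, of 38, all had a site. EARS2 was called in 2 EtOH and 6 TAM libraries and YARS1, over its 2 sites together, in 1 and 6. HARS1 and HARS2, which face each other 85 bp apart, were called in 2 and 5. Of 82 chaperone genes, 25 had a partner and 22 a site, such as CCT7 of the cytosolic chaperonin (3 EtOH and 6 TAM libraries). Of 69 histone genes, 22 had a partner and 16 of these a site. H2AC25 and H2BC26 were called in 4 EtOH and 6 TAM libraries and H2BC11, over its 3 sites together, in 4 and 5. Histone genes are near-identical copies, and only uniquely mapped reads were kept, so that their calls are uncertain. Of 40 proteasome genes, 10 had a partner and 6 a site, such as PSMB9 (1 EtOH and 6 TAM libraries), and of 512 zinc finger genes (ZNF), 66 had a partner and 46 a site, such as ZNF425 and ZNF398 (4 and 6). None of 20 genes of the transformation network, among them FOS, JUN, STAT3, IL6, MYC, S100A8, and S100A9, had a divergent protein-coding partner within 1 kb. Over all protein-coding genes, 14.3% had such a partner, so that little is read from a count over 20 genes.

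Of 26 textbook divergent pairs, all of which faced within 1 kb in the annotation, 22 had a site. Of all 974 pairs of canonical starts, 786 (80.7%) had one. Pairs without one included COL4A3/COL4A4, COL4A5/COL4A6, and SURF1/SURF2. In an EtOH library 16 pairs were called, and in all 6 TAM libraries 7 were. Of all 1221 sites, 52.8% were called in an EtOH library and 23.9% in all 6 TAM libraries. The chaperonin pair HSPD1/HSPE1 (chr2:198363566-198365187) had fold enrichments of 7.70 and 9.32 in S100A8-Flag EtOH and of 7.36 and 9.86 in S100A9-Flag EtOH replicates 1 and 3. Replicate 2 had no peak with q ≤ 1e-07. In TAM, they were 10.8, 8.21, and 9.499 for S100A8-Flag and 16.5, 9.28, and 6.37 for S100A9-Flag. The values of both treatments overlapped. The summit lay 91 bp from the start of HSPD1 and 448 bp from that of HSPE1.

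TRMT2A, a transfer RNA methyltransferase, and RANBP1, a regulator of nuclear transport, shared a site called in 4 EtOH and 6 TAM libraries, with values from 7.94 to 10.9 and from 8.43 to 16.5. MRPL21/IGHMBP2 was called in 4 EtOH and 5 TAM libraries, with values from 7.23 to 13.5 and from 11.01 to 14.3. PRKDC, the kinase of end joining, and the replication helicase gene MCM4 shared a site called in 2 EtOH and 5 TAM libraries, with its summit 132 bp from the start of MCM4. The site of NPAT and ATM, a histone gene coactivator and the DNA damage kinase, lay 4 bp from the start of ATM and was called in 1 EtOH and 6 TAM libraries.

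PDCD10 and SERPINI1, 829 bp apart, had a site 34 bp from PDCD10 that was called in 6 TAM libraries and another 38 bp from SERPINI1 that was called in 3, and no EtOH library called either. HADHA/HADHB, the subunits of the mitochondrial trifunctional protein, and HARS1/HARS2 were each called in 2 EtOH and 5 TAM libraries, and TAP1/PSMB9, of antigen presentation, in 1 and 6. The base excision repair gene MUTYH shared a site with TOE1 that was called in 3 EtOH and 4 TAM libraries, and NTHL1/TSC2 and ZAR1L/BRCA2 were each called in 1 and 5. COL4A1/COL4A2, of type IV collagen, and SIRT3/PSMD13 were called in 2 and 4. No EtOH library called SARS2/MRPS12 or TK1/AFMID (5 TAM libraries each) or THAP10/LRRC49 (3), and each of 2 sites at TMEM258/FEN1 was called in 2 TAM libraries.

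Near the limits of the criteria, the pairs with the widest gap still inside were PRADC1/CCT7 (997 bp) and SMIM7/TMEM38A (995 bp), and the nearest outside was USH1G/OTOP2 (1018 bp). The 2 sites with the lowest best −log10 q were at ZRANB3/R3HDM1 (7.21) and STARD6/C18orf54 (7.61). The farthest upstream of a divergent start inside the window were at SERF2 (1491 bp) and RPL35 (1490 bp), and the nearest outside at H2AC25 (1517 bp) and MPC2 (1518 bp). The farthest downstream were at CEBPZOS (249 bp) and ENSG00000272104 (246 bp).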

How the data were processed

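Narrow peak lists of the 11 Flag ChIP libraries were used. Reads had been mapped by the authors with Bowtie2 (genome build hg19), and only those with a unique position were retained. The authors' peak caller was MACS2, run on each library with its own input as control, in versions not given in the sources used here. The deposited columns used are the fold enrichment (ratio) over input at the summit and the −log10 q value, and a column with the −log10 p value was not used. The lists reach down to q = 0.05 and give no read numbers, so the depth is unknown and no counting error is given. The 2 Pol II ChIP samples and the 11 inputs were not analyzed here.

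Peaks with q ≤ 1e-07 that shared at least 1 bp were merged. TSSs were those of protein-coding transcripts of protein-coding genes in GENCODE 44 lifted to GRCh37, and 0 of 559300 peaks lay past a chromosome end of that genome. A promoter window ran from 1500 bp upstream to 250 bp downstream. The sites, gene lists, motifs, and tests were chosen with earlier results of these data known, so that no count over a list is independent support.

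Each library gave 1 value per comparison. Log2 odds ratios had 0.5 added to each count. Treatments were compared by exact permutation over libraries within each protein, two-sided by doubling the smaller tail, which was tested on simulated data, and 6 tests were adjusted by the Benjamini-Hochberg method. A difference between the proteins in the effect of TAM was tested for 4 measures, and p ran from 0.08 to 0.61 by exact permutation. The EtOH and TAM libraries with the same replicate number were not treated as pairs, since their calls, centered on the group mean, had correlations between −0.01 and 0.05 over 5 pairs. P values measure only the spread between these replicates.

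Named pairs were the textbook pairs, the sites called in all 11 libraries, those no TAM library called, those nearest to each threshold, and the group members called in the most libraries, and a few of these are not reported here. The alternatives were other q thresholds, equal numbers of peaks, other replicate criteria, TSS sets, gaps, and windows, CpG-rich windows only, differences of percent, and the omission of each library. Python 3.11.15, numpy 2.4.6, pandas 2.3.3, scipy 1.17.1, and pysam 0.24.0 were used.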

Additional observations from a re-analysis of the deposited data

How the results depend on the processing

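Values below are log2 odds ratios or percentage points as in the report, and a call is an exact permutation p of at most 0.05, unadjusted. The preference of peaks for genes with a divergent partner kept its direction and its call in all 23 alternatives, with values from 0.96 to 2.22, or 20.5 points as a difference of percent. Its difference between TAM and EtOH lost the call with equal numbers of peaks (0.024, permutation p = 0.71) and kept it in the other alternatives apart from the replicate block, at sizes from 0.27 with summits within 100 bp of a TSS to 0.98 with every deposited peak (20.4 points as a difference of percent). With the replicate block, which treats same-numbered libraries as 5 pairs, it was 0.69 (exact permutation p = 0.0625, the smallest that 5 pairs can give), and no other call changed, except that the unadjusted p of the KLF/SP1 motif also became 0.0625. Without 1 library it ran from 0.56 to 0.67.

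The difference in calls between divergent and other promoter-proximal sites was small and changed sign with q ≤ 1e-10 (0.0147), equal peaks (0.0666), CpG-rich windows (0.0101), and differences of percent (0.0799 points), and without 1 library it ran from −0.13 to 0.0051, the latter without S100A8-Flag EtOH replicate 2. The difference between proteins in TAM turned to 0.081 with equal peaks and ran from −0.24 to −0.08 without 1 library. The share of summits between the starts gave 14.3 points with equal peaks (permutation p = 0.01), 8.37 with every deposited peak (p = 0.03), and −1.57 with q ≤ 1e-10 (p = 0.66), and 2.33 to 5.64 without 1 library, where omitting S100A8-Flag TAM replicate 1 gave the highest (p = 0.05). In these alternatives, too, the best peak of any library set each site and its pair. The difference in percentile gave −10.6 with q ≤ 1e-10 (permutation p = 0.01), −0.66 with every deposited peak, −0.95 with gene 5′ ends as TSSs, −1.02 in CpG-rich windows, and −0.98 to 1.33 without 1 library. With basic and canonical transcripts, TSS sets added after the data were seen, it was −0.19 and −0.089. For the KLF/SP1 motif, the difference with every deposited peak was −0.031, and 0 motifs passed the adjusted threshold in all 25 alternatives, where the smallest adjusted p was 0.055. The causes were not tested.

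The number of sites was 149 with equal peaks, 704 with gene 5′ ends, 737 with every replicate, and 1898 with at least 1 replicate. Depth is unknown, so that a site without a peak in a library was not detectable there at q ≤ 1e-07 rather than absent.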
